A study of Mus musculus with 8 samples.

Results

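The genes of VEGF and angiopoietin signalling were followed across the cells of the young mouse ascending thoracic aorta. There are 10 of them among the 32285 genes of the deposited count matrix: the VEGF receptors Kdr, Flt1 and Flt4, the co-receptors Nrp1 and Nrp2, the ligand Vegfa, the angiopoietin receptor Tek with its relative Tie1, and the ligands Angpt1 and Angpt2. They were chosen by gene symbol, each matched 1 row of the matrix, and none of them was used to sort cells into groups. The tissue came from 3 wild-type mice of 11, 12 and 13 weeks with no treatment, and their strain and sex are not used here. The cells were freed with collagenase and elastase, marked with hashtag antibodies and read as UMI counts, each UMI being 1 captured RNA molecule. Hashtags 1, 2 and 3 stand for 11, 12 and 13 weeks, so each is read as 1 animal, and age cannot be told apart from animal.

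VEGF ligands are secreted proteins that bind receptor tyrosine kinases on endothelial cells. Kdr (VEGFR2) carries most of the growth and permeability signal, Flt1 (VEGFR1) binds VEGF-A tightly and is known as a decoy, and Flt4 (VEGFR3) binds VEGF-C and VEGF-D and is best known from lymphatic vessels. The neuropilins Nrp1 and Nrp2 are co-receptors that also bind semaphorins. Angiopoietin 1, usually made by mural and stromal cells, activates the endothelial receptor Tek (Tie2) and keeps vessels quiescent, while angiopoietin 2 can oppose it. Tie1 modulates Tek.

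Of 48467 barcodes, 9939 held at least 500 genes, at most 20% mitochondrial UMIs and fewer than 10 haemoglobin UMIs. The smooth muscle (SMC) group had at least 1.5% of UMIs from Acta2, Tagln and Myh11 and held 6691 barcodes, and the fibroblast group had at least 0.3% from Dcn and held 1395. The capillary endothelial group had at least 3 UMIs of Gpihbp1, Cd300lg and Btnl9 and held 605 barcodes. The other endothelial group had at least 2 UMIs of Pecam1, Cdh5 and Vwf with at most 1 UMI of the capillary genes and held 112. A further 451 barcodes met more than 1 rule and were left out, and 685 met none. Median UMIs per barcode were 2500.0, 4171, 4542 and 7315 in the capillary, other endothelial, fibroblast and SMC groups. The names were checked on other genes, and 8 endothelial markers summed to 4089 CPM (UMIs of the gene per 1000000 UMIs of the group) in the capillary and 2367 CPM in the other endothelial group, against 119 in fibroblasts and 39.2 in SMC. The large-vessel endothelial genes summed to 1694 CPM in the other endothelial group and 168 CPM in the capillary group, while the capillary genes summed to 2626 and 36818 CPM. The other endothelial group was mixed, since 16 of its 112 barcodes held a UMI of Prox1, Mmrn1, Ccl21a or Reln, which mark lymphatic endothelium, as did 13 of 605 capillary barcodes. Fibroblast marker genes summed to 493 CPM in the other endothelial group, macrophage markers to 99.2 CPM and T and B cell markers to 54.9 CPM. In its hashtag 2 barcodes the macrophage markers reached 261 CPM and the T and B cell markers 123 CPM. SMC marker genes summed to 1359 CPM in the capillary and 1198 CPM in the other endothelial group, and their part in the results was not tested. Hashtag calling gave 1 hashtag to 74.4% of capillary and 68.8% of other endothelial barcodes, but only to 20.5% of fibroblasts and 21.1% of SMC. The counts of these barcodes were summed per group and hashtag, which gave 12 sums. The alternative without leukocyte and platelet barcodes took the other endothelial sums from 24, 20 and 33 barcodes to 23, 14 and 22.

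The start regions of the endothelial receptor genes are shown first because these genes were all higher in both endothelial groups than in SMC. The sequences are from RefSeq's promoter table (build GRCm38.p6), are written 5′ to 3′ on the gene's own strand, and carry in capitals each GGAA, the core bound by ETS factors, or its reverse complement TTCC. In the second Flt1 stretch TGACGTCA, the cyclic AMP response element, is in capitals too. The Kdr stretch is chr5:75978557-75978586 (minus strand), with a GGAA starting 118 bases before the table's start, the Flt1 stretches are chr5:147726034-147726063 and chr5:147726074-147726103 (minus), the Flt4 stretch is chr11:49609563-49609592 (plus) and the Tek stretch is chr4:94739217-94739246 (plus). For Tie1 the 250 bases before the start, chr4:118489850-118490099 (minus), are given whole. The Kdr, Flt1 and Tek stretches lie inside the gene's own RefSeq span, before a start that is not the outermost one.
Kdr: gcgtgGGAAaccgGGAAacccaaacctggt
Flt1, nearer stretch: GGAAgtgggctggGGAAaggttataaatcg
Flt1, farther stretch: gggggacccctTGACGTCActGGAAggagg
Flt4: cctggggcaagctGGAAgggacagagaggg
Tek: gatacccctattgTTCCtgaaaatgctgac
Tie1: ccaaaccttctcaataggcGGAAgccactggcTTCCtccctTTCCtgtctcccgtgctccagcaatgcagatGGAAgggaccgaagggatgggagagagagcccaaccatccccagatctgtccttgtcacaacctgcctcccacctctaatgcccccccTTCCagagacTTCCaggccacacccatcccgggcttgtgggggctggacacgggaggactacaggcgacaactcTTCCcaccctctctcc
In the same build the genes lie at chr5:75932827-75979072 (Kdr), chr5:147561604-147726438 (Flt1), chr11:49609679-49652739 (Flt4), chr8:128358591-128505476 (Nrp1) and chr1:62703317-62818692 (Nrp2). Tek lies at chr4:94739086-94874976, Tie1 at chr4:118471191-118489849, Vegfa at chr17:46016993-46032377, Angpt1 at chr15:42424667-42676977 and Angpt2 at chr8:18690263-18741562. Of the 10 genes, 8 had an entry, and Angpt1 and Angpt2 had none. Counted on both strands in the 250 bases before the start, GGAA occurred 7 times at Tie1, 6 times at the first of the Vegfa starts, 4 times at Kdr, Flt1 and Nrp1, 2 times at Flt4 and Tek and 1 time at Nrp2. It is no mark of these genes, since 93.4% of all 32851 RefSeq windows of this length hold it. The longer form AGGAAG, which contains GGAA, occurred 2 times at Flt1 and 1 time each at Nrp1 and Tie1, against 29.5% of all windows. TGACGTCA was found at Flt1 alone among the 8 genes, and 1.55% of all windows hold it. TATAAA, the TATA box, was also found at Flt1 alone, against 12.4% of all windows. These matches describe letters and not binding.

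The receptors and co-receptors were all called higher in both endothelial groups than in SMC. The VEGF receptors Kdr and Flt1 were far higher in capillary than in other endothelial cells. The co-receptors were less confined to endothelium, and pooled fibroblasts held 214 CPM of Nrp1. Nrp2 was 8.50 CPM in other endothelial barcodes with no lymphatic UMI, beside 13.0 CPM in pooled SMC. The question behind the comparison of all 4 groups is which cells of the wall carry each side of the pathway. Against SMC, 7 of the 10 genes were higher in capillary endothelium and none lower, where 26.4% of all 7628 genes tested were called higher and 26.5% lower. No lower gene passed at an unadjusted p under 0.05 or with DESeq2 either. The 7 are Kdr, Flt1, Flt4, Nrp1, Nrp2, Tek and Tie1. Against SMC, 8 were higher and 1 lower in other endothelium (14.2% and 13.2% of all genes). Against SMC, 5 were higher and 2 lower in fibroblasts (22.0% and 18.6%). Capillary against other endothelium gave 4 higher and 1 lower (8.59% and 8.69%). A gene was called at an adjusted p under 0.05 in edgeR's quasi-likelihood test over all genes with the hashtag as a block. 9 of the 10 genes passed the filter on low counts, and Vegfa did not. The same 7628 genes were tested in all 4 comparisons, so a gene low in SMC could pass through its level in other groups. In the SMC sums Flt4 had 1 UMI, Tie1 had 8, Tek had 11 and Kdr had 43. A lower call against SMC was hardly open to these genes, so its absence says little about them. The comparisons share sums (3 of the 4 use the same SMC sums), so they are not independent of each other. The median log2 fold change of all genes lay between -0.01 and 0.05 in the 4 comparisons.

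**Figure D1:**
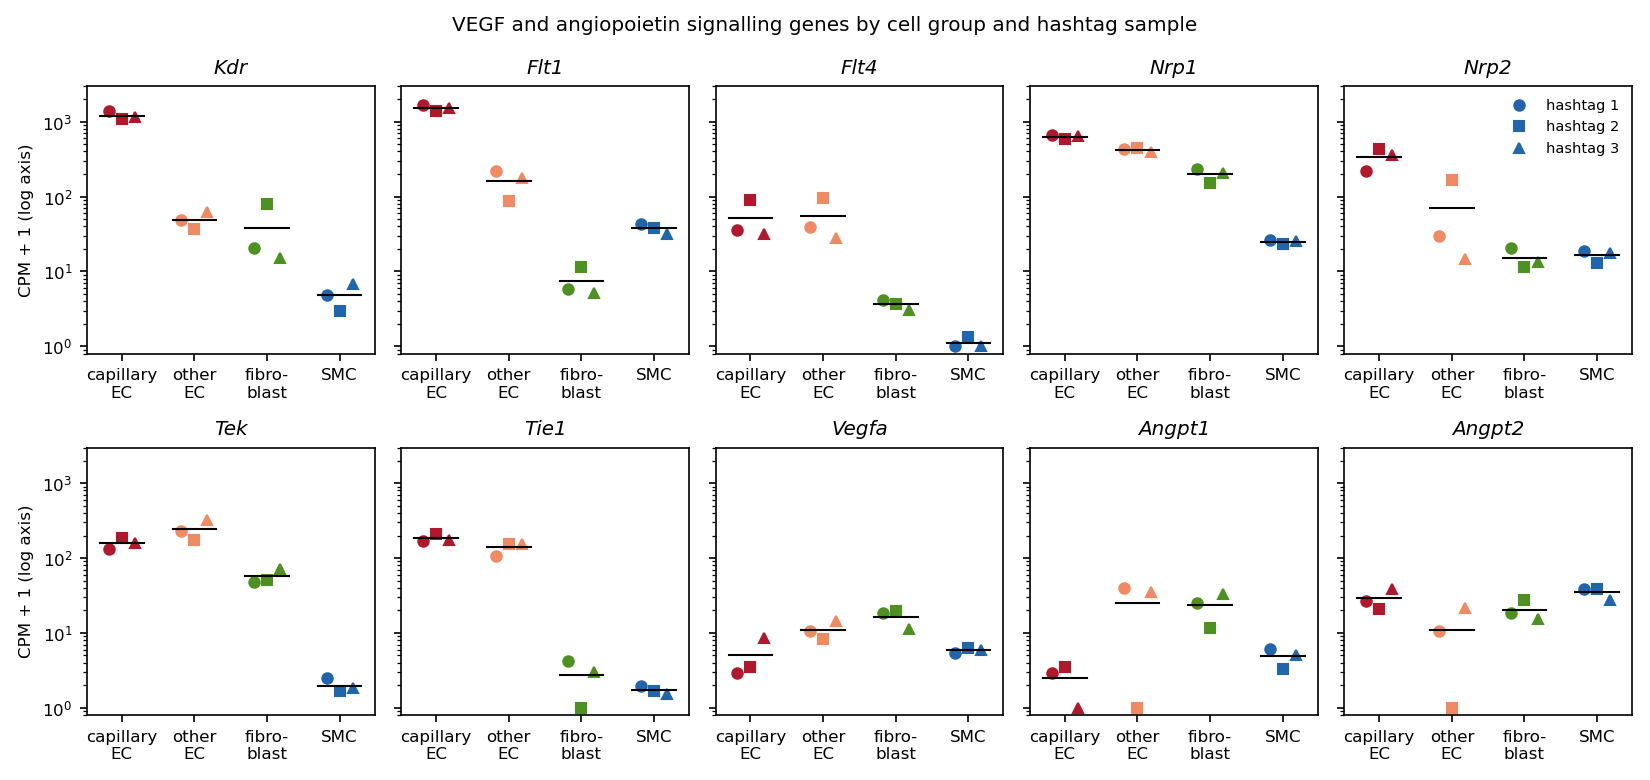
Level of each gene in each cell group (x axis) as CPM plus 1 (y axis, log scale); EC is endothelial, each symbol is 1 hashtag sample (1 animal) and the bar is their mean. Kdr and Flt1 stand highest in the capillary group in every sample, and Vegfa, Angpt1 and Angpt2 are low in every group. Between the endothelial groups the samples of Tek overlap and those of Tie1 do not, and neither difference passed the test.

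Kdr was a capillary gene in this tissue. Its level in capillary endothelium was 1380.0, 1079.8 and 1164 CPM in hashtags 1, 2 and 3. In other endothelium it was 47.8, 36.3 and 60.6 CPM, and in SMC 3.91, 1.99 and 5.72 CPM. No sample of these 3 groups overlapped with another group's. The log2 fold change was 4.69 ± 0.33 (SE, n = 3 per group) for capillary against other endothelium (edgeR adjusted p = 2.99e-11) and 8.13 ± 0.26 for capillary endothelium against SMC (edgeR adjusted p = 5.59e-20). Neither call was lost in any of 16 alternative analyses, and the first was 5.66 without barcodes holding a lymphatic marker UMI. Other endothelium against SMC gave 3.44 ± 0.70 (edgeR adjusted p = 3.64e-04), from 19 UMIs in other endothelium. That last call was lost without barcodes holding a lymphatic marker UMI (2.50, edgeR adjusted p = 0.0523), and it was lost in 2 of the other alternatives.

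The order of Kdr was capillary, other endothelium, fibroblast and SMC. Over the 3 samples, other endothelium (48.2 ± 12.2 CPM, mean ± SD, n = 3) and fibroblasts (37.4 ± 35.8 CPM) did not differ beyond their spread. Pooled over all barcodes, with or without a hashtag, they were apart. Other endothelium held 54.9 CPM (37.3 to 78.0) and fibroblasts 12.7 CPM (10.1 to 15.6). Fibroblasts had 19.2, 78.6 and 14.3 CPM, so hashtag 2 stood far above the others, and 10 of its 30 UMIs were in 1 barcode. Against SMC this was a log2 fold change of 3.00 ± 0.47 (edgeR adjusted p = 6.70e-06), which was 1.78 without hashtag 2 and 3.73 without hashtag 3. The level sat in a small subset: the 59 fibroblast barcodes with a UMI of the mesothelial markers Msln, Upk3b or Krt19 had 150.5 CPM of Kdr (57 UMIs, exact 95% Poisson interval 114 to 195), and the other 1336 had 4.52 CPM (29 UMIs, 3.03 to 6.50). Mesothelium is the cell layer that lines the body cavities. Without those barcodes the log2 fold change fell to 0.88 and was not called (edgeR adjusted p = 0.278). The 3 mesothelial markers summed to 285, 422 and 169 CPM in the fibroblasts of hashtags 1, 2 and 3, and were highest where Kdr was highest. Intervals on pooled counts cover counting error only.

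Flt1 followed the same order at the top but not at the bottom. Capillary endothelium had 1674, 1400.2 and 1503 CPM, other endothelium 219.8, 87.1 and 175 CPM, SMC 42.0, 37.5 and 30.5 CPM, and fibroblasts 4.81, 10.5 and 4.08 CPM. All 4 groups were apart in every sample. The log2 fold change was 3.34 ± 0.18 for capillary against other endothelium (edgeR adjusted p = 3.12e-13) and 5.30 ± 0.14 for capillary endothelium against SMC (edgeR adjusted p = 2.06e-21). Other endothelium stood 1.96 ± 0.25 above SMC on the log2 scale (edgeR adjusted p = 6.11e-07), a call lost at a mitochondrial limit of 10% (0.39, edgeR adjusted p = 0.797), where 2 of the 3 other endothelial sums had too few barcodes and were dropped. Fibroblasts were lower than SMC, with a log2 fold change of -2.63 ± 0.38 (edgeR adjusted p = 1.83e-06), from 9 fibroblast UMIs against 397. That call was lost under stricter group thresholds (-0.66, edgeR adjusted p = 0.0696) and with hashtags called on log ratios centred per barcode (-0.24, edgeR adjusted p = 0.782).

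The levels in SMC were set beside those of barcodes under 500 genes. These barcodes had no mitochondrial or haemoglobin limit, and red-cell marker genes summed to 437556 CPM in them, against 385 CPM in SMC. Such a share lowers the CPM of other genes there, and no level was corrected for it. Barcodes under 500 genes held 7.44 CPM of Flt1 (5.50 to 9.83), and SMC held 37.9 CPM (36.2 to 39.6, 1880 UMIs pooled). For Kdr, Tek and Tie1 the SMC pools were instead below those barcodes: 1.97 against 3.79 CPM for Kdr, 0.604 against 1.37 CPM for Tek and 0.524 against 1.82 CPM for Tie1. In barcodes under 500 genes the SMC marker genes summed to 1358 CPM, against 8150 CPM in SMC. The part of free RNA in the SMC counts was not tested. The counts are per gene, so membrane and soluble forms of Flt1 were not separated.

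At a common depth of 1000 UMIs per barcode, with no barcode left out, 67.8% of capillary barcodes held a Kdr UMI (exact 95% binomial interval 63.9 to 71.5) and 71.6% a Flt1 UMI. Both genes were seen in 306 of the 605 capillary barcodes, or 50.6%, where the product of the shares is 48.5%. In other endothelium the shares were 9.82% for Kdr (5.01 to 16.9) and 13.4% for Flt1, and none of the 112 barcodes held both, where the product of the shares is 1.32%. A count of 0 allows up to 2.68% of barcodes (3 of 112) with UMIs of both at this depth, which sets no limit on cells that express both. SMC gave 0.239% for Kdr, but 3.71% for Flt1. Fibroblasts gave 0.860% and 0.573%. Without thinning the Kdr shares were 89.8%, 17.0%, 2.72% and 1.17% in capillary, other endothelial, fibroblast and SMC barcodes.

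**Figure D2:**
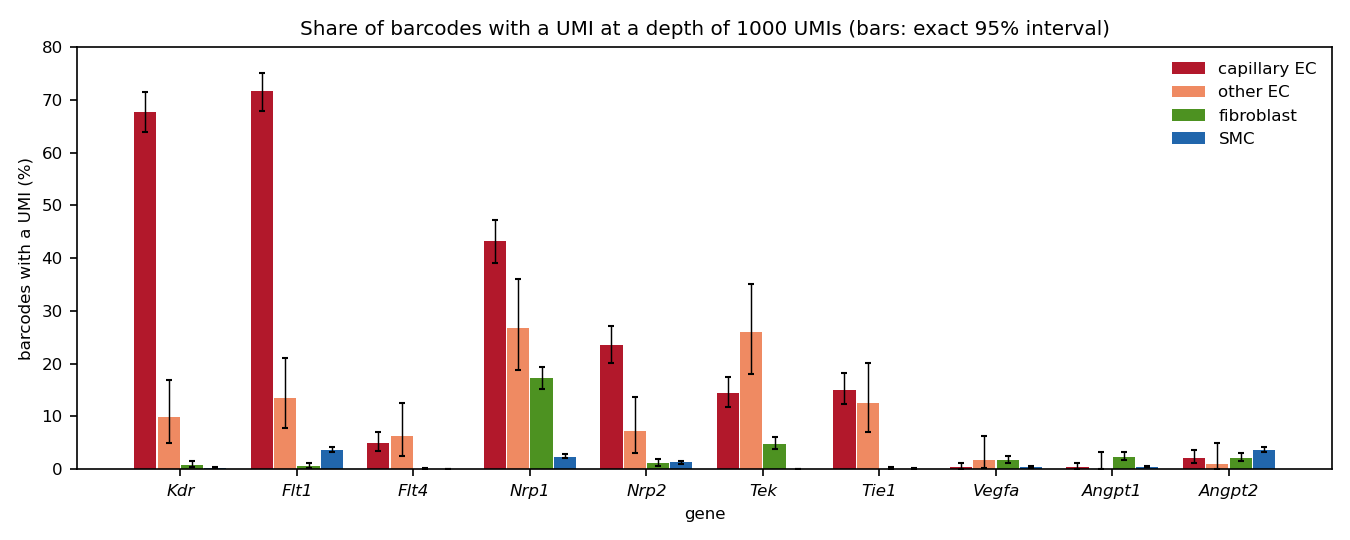
Percentage of barcodes with at least 1 UMI of each gene (y axis) after each barcode was thinned to 1000 UMIs, for the 4 cell groups; EC is endothelial and the bars are exact 95% binomial intervals. Kdr (67.8%) and Flt1 (71.6%) were found in most capillary barcodes, Tek reached 25.9% in other endothelium, and the ligands stayed below 4% everywhere.

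Flt4 was found in both endothelial groups at a level that 1 animal raised. Capillary endothelium had 35.2, 88.3 and 30.4 CPM and other endothelium 38.2, 94.3 and 27.0 CPM, with hashtag 2 highest in both. Their difference was 0.01 ± 0.34 on the log2 scale (edgeR adjusted p = 0.992). Of the 35 capillary UMIs of hashtag 2, 19 came from 1 barcode. The lymphatic marker genes moved with it: they summed to 956 CPM in the capillary sum of hashtag 2 against 9.79 and 13.3 in hashtags 1 and 3, and to 1451 CPM in other endothelium against 105 and 60.6. In other endothelium the 16 barcodes with a lymphatic UMI had 321 CPM of Flt4 (30 UMIs, 216 to 458), and the other 96 had 23.4 CPM (11.7 to 41.8). In the capillary group the 13 such barcodes held 50 of 116 Flt4 UMIs, at 609 CPM against 35.1 CPM in the remaining 592.

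Flt4 was close to absent from the other cells. SMC held 1 UMI in the 3 sums and fibroblasts 4. The ratio of capillary endothelium to SMC in the summed CPM was 519 (exact 95% interval 90.1 to 20785, edgeR adjusted p = 1.09e-12), and that of other endothelium to SMC was 579 (93.1 to 23939.7, edgeR adjusted p = 1.92e-09). Fibroblasts against SMC gave a ratio of 28.8 (2.85 to 1419, edgeR adjusted p = 0.00678). That last call was lost in 4 of 16 alternatives, among them without hashtag 1 (edgeR adjusted p = 0.133) and without the mesothelial barcodes (edgeR adjusted p = 0.320), which held 4 of the 9 Flt4 UMIs of all fibroblasts.

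Nrp1 was the most widely shared of the receptors. Capillary endothelium had 654, 593 and 635 CPM, other endothelium 430.1, 443 and 398 CPM, fibroblasts 236, 149 and 208 CPM, and SMC 25.2, 22.3 and 24.2 CPM. The 4 groups did not overlap in any sample. Against SMC the log2 fold changes were 4.63 ± 0.13 for capillary endothelium (edgeR adjusted p = 3.91e-21), 4.00 ± 0.17 for other endothelium (edgeR adjusted p = 3.03e-16) and 3.03 ± 0.15 for fibroblasts (edgeR adjusted p = 8.89e-16). All 3 were called in all 16 alternatives.

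The step from other to capillary endothelium was small for Nrp1, 0.62 ± 0.14 on the log2 scale (edgeR adjusted p = 0.00189), and did not hold in 6 of 16 alternatives. It was 0.57 without hashtag 3 (edgeR adjusted p = 0.0505), 0.39 without lymphatic barcodes (edgeR adjusted p = 0.122) and 0.01 under stricter group thresholds (edgeR adjusted p = 0.989). In other endothelium of hashtag 2, 30 of 61 Nrp1 UMIs came from 1 barcode. Within other endothelium the 56 barcodes with a UMI of Bmx, a kinase of large-vessel endothelium, had 641 CPM of Nrp1 (558 to 733), and the 56 without had 169 CPM (120.3 to 231). Median UMIs were 4788 and 3321 in these barcodes, and the part of depth in the split was not tested. The barcodes with a lymphatic UMI were low, at 53.5 CPM (17.4 to 125). These splits by Bmx, Pi16, lymphatic and mesothelial UMIs were chosen after the values were seen and carry no test.

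Nrp2 was highest in capillary endothelium. Its level was 219, 436 and 356 CPM there and 28.7, 167 and 13.5 CPM in other endothelium, so the groups did not overlap although hashtag 2 stood apart in the second. The log2 fold change between them was 2.30 ± 0.37 (edgeR adjusted p = 3.20e-05), and 4.27 ± 0.23 for capillary endothelium against SMC (edgeR adjusted p = 7.10e-15). The first value was 3.95 without hashtag 2, 1.69 without hashtag 3 and 5.12 without lymphatic barcodes, and its call was lost at a mitochondrial limit of 10% (1.52, edgeR adjusted p = 0.0598). Fibroblasts (19.2, 10.5 and 12.2 CPM) and SMC (17.6, 12.0 and 16.9 CPM) overlapped, and the fitted difference was -0.11 ± 0.49 (edgeR adjusted p = 0.886).

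The Nrp2 level of other endothelium rested on few cells. Other endothelium against SMC gave 1.97 ± 0.52 on the log2 scale (edgeR adjusted p = 0.00495), higher in 2 of 3 hashtags. Of its 28 UMIs, 23 were in hashtag 2, and 14 of those in 1 barcode. The value was 0.02 without hashtag 2 (edgeR adjusted p = 0.987) and -0.89 without lymphatic barcodes. The 16 barcodes with a lymphatic UMI had 459.7 CPM of Nrp2 (333 to 619) and the other 96 had 8.50 CPM (2.31 to 21.7), which is below the SMC pool of 13.0 CPM. In the capillary group Nrp2 remained at 292 CPM (268 to 318) in barcodes with no lymphatic UMI.

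**Figure D3:**
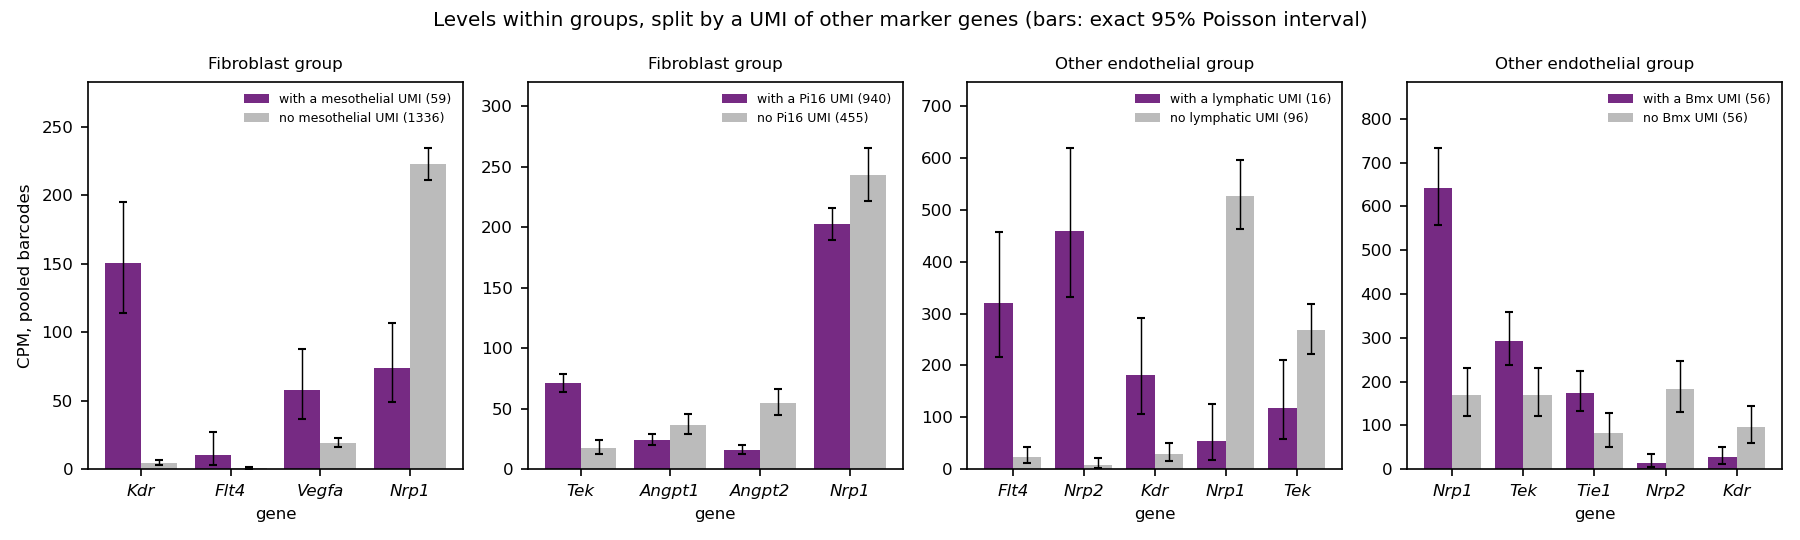
Levels within the fibroblast and other endothelial groups after splitting barcodes by a UMI of other marker genes (y axis: CPM of pooled barcodes; number of barcodes in each legend; bars: exact 95% Poisson intervals). Kdr in the fibroblast group lay in barcodes with a mesothelial UMI (150.5 against 4.52 CPM), Tek in those with a Pi16 UMI, and Flt4 and Nrp2 in the other endothelial group lay in those with a lymphatic UMI.

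Tek and Tie1 marked both endothelial groups. Tek was 131, 182 and 158 CPM in capillary endothelium, 229, 174 and 323 CPM in other endothelium, 46.5, 49.8 and 71.3 CPM in fibroblasts, and 1.47, 0.664 and 0.817 CPM in SMC. The endothelial groups overlapped, and both lay above fibroblasts in every sample. Against SMC the log2 fold changes were 7.03 ± 0.28 for capillary endothelium (edgeR adjusted p = 7.53e-18), 7.60 ± 0.35 for other endothelium (edgeR adjusted p = 7.22e-16) and 5.61 ± 0.36 for fibroblasts (edgeR adjusted p = 3.50e-13). These 3 calls were made in all 16 alternatives. They rest on 11 Tek UMIs in the SMC sums.

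Capillary endothelium had less Tek than other endothelium by -0.58 ± 0.21 on the log2 scale, which did not pass (edgeR adjusted p = 0.0659). The difference was called in 5 of 16 alternatives, among them without lymphatic barcodes (-0.76, edgeR adjusted p = 0.00878) and under stricter group thresholds (-0.97, edgeR adjusted p = 4.72e-04). Without hashtag 2 it was -0.87 (edgeR adjusted p = 0.00848). In other endothelium the Bmx barcodes had 294 CPM of Tek (238 to 358) and those without Bmx had 169 CPM (120.3 to 231). At 1000 UMIs, 25.9% of other endothelial and 14.4% of capillary barcodes held a Tek UMI (18.1 to 35.0 and 11.7 to 17.4).

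Tek in the fibroblast group was not spread evenly. At 1000 UMIs, 4.80% of fibroblast barcodes held it (3.74 to 6.06), against 0.0149% of SMC, and without thinning the share was 17.1%. The 940 barcodes with a UMI of Pi16, a marker of adventitial fibroblasts, had 71.0 CPM of Tek (340 UMIs, 63.6 to 78.9), and the 455 without had 17.5 CPM (35 UMIs, 12.2 to 24.4). Endothelial genes were read in the same barcodes, and their part in the Tek level was not tested. Tie1 had 12 UMIs in all fibroblasts against 375 of Tek, while capillary endothelium held 343 of Tie1 and 306 of Tek. The 8 endothelial markers summed to 119 CPM in fibroblasts and 4089 CPM in capillary endothelium. In fibroblasts Eng gave 70.3 CPM and Ecscr 22.1 CPM of this sum, and each other marker was at 8.69 CPM (Egfl7) or less.

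Tie1 was highest in both endothelial groups. It was 170.3, 209 and 171 CPM in capillary endothelium and 105, 152 and 155 CPM in other endothelium. The capillary samples were all above the others, but the fitted difference, 0.45 ± 0.22, did not pass (edgeR adjusted p = 0.187), nor did it in any of 16 alternatives. Fibroblasts (3.21, 0 and 2.04 CPM, 3 UMIs) and SMC (0.978, 0.664 and 0.545 CPM, 8 UMIs) did not differ in the test (ratio 2.70, exact 95% interval 0.461 to 11.3, edgeR adjusted p = 0.301). Capillary and other endothelium stood 7.66 ± 0.26 and 7.21 ± 0.40 above SMC on the log2 scale (edgeR adjusted p = 2.60e-19 and 5.97e-14).

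**Figure D4:**
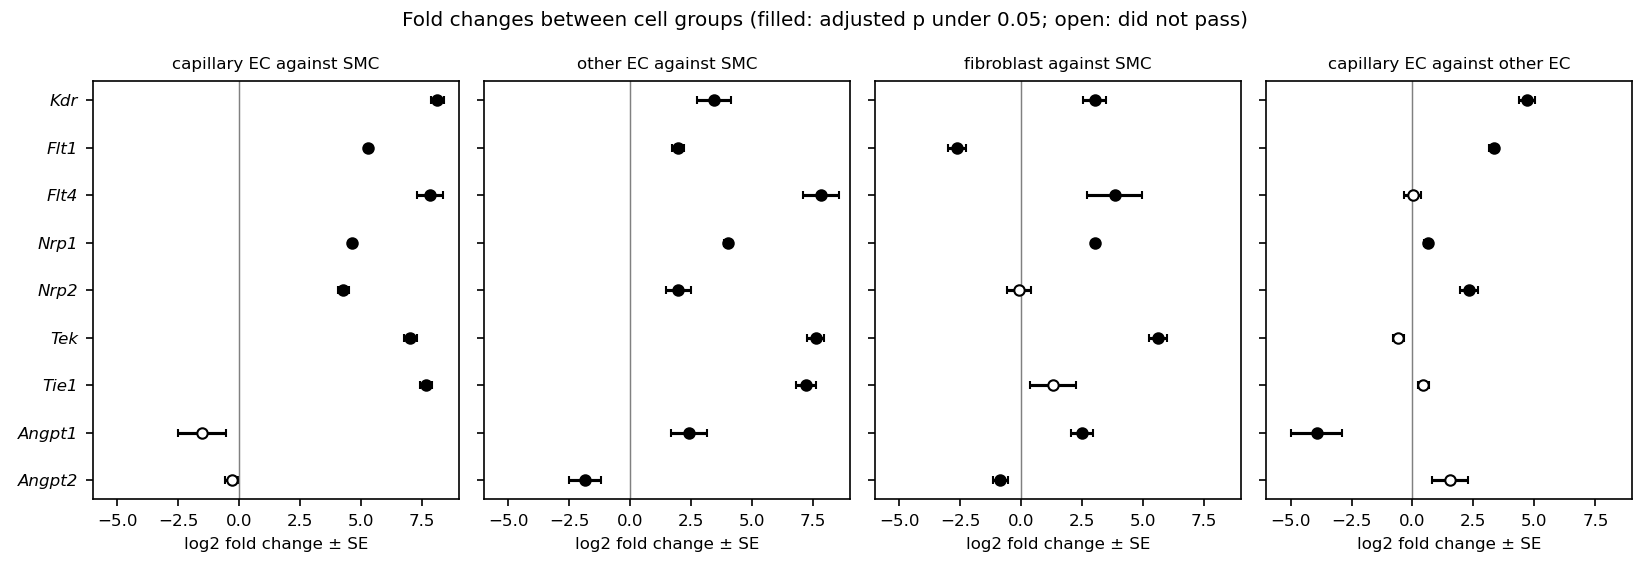
Log2 fold change with its standard error (x axis) of the 9 genes that could be tested, in the 4 comparisons of cell groups; EC is endothelial, filled circles passed an adjusted p of 0.05 in edgeR and open circles did not. Receptors lie to the right in both endothelial groups against SMC, and Flt1 and Angpt2 lie to the left in fibroblasts. Between the endothelial groups Tek (-0.58) and Tie1 (0.45) did not pass.

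The ligands were low in all groups. Vegfa, the main ligand of Kdr and Flt1, had 17.6, 18.3 and 10.2 CPM in fibroblasts, 9.56, 7.26 and 13.5 CPM in other endothelium, 1.96, 2.52 and 7.61 CPM in capillary endothelium, and 4.40, 5.32 and 4.90 CPM in SMC. These rest on 23, 4, 6 and 52 UMIs. All fibroblast samples were above all SMC samples, and the ratio in the summed CPM was 3.19 (exact 95% interval 1.86 to 5.30). Of the 16 alternatives, 3 let Vegfa pass the filter, and edgeR called it higher in fibroblasts in each (log2 fold changes 1.47 to 2.51, adjusted p from 2.17e-04 to 0.0286). Other endothelium also lay above SMC in every sample, and edgeR called it in 2 of the same 3 alternatives (log2 fold changes 0.61 to 2.81, adjusted p from 0.0319 to 0.887). Pooled over all barcodes, fibroblasts held 21.4 CPM (145 UMIs, 18.0 to 25.1). The fibroblast barcodes with a mesothelial UMI had 58.1 CPM (36.4 to 87.9) and the others 19.2 CPM (15.9 to 22.9), so the group's level was similar without the mesothelial ones. Barcodes under 500 genes, where haemoglobin RNA lowers the CPM of other genes, held 1.06 CPM.

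Angpt1, the activating ligand of Tek, was higher in fibroblasts than in SMC. Fibroblasts had 24.0, 10.5 and 32.6 CPM and SMC 5.13, 2.33 and 4.08 CPM, with no overlap. The log2 fold change was 2.47 ± 0.45 (edgeR adjusted p = 5.36e-05), lost in 1 of 14 alternatives, with log ratios centred per barcode (1.47, edgeR adjusted p = 0.360). Other endothelium had 38.2, 0 and 33.7 CPM from 9 UMIs, and its difference from SMC (2.41 ± 0.73, edgeR adjusted p = 0.0138) was lost without hashtag 1 (2.23, edgeR adjusted p = 0.173) and without hashtag 3 (2.02, edgeR adjusted p = 0.236). In that group 10 of the 11 pooled Angpt1 UMIs were in the Bmx barcodes. Capillary endothelium against SMC did not pass (ratio 0.350, 0.0410 to 1.34, edgeR adjusted p = 0.197). Capillary endothelium held 2 UMIs, against 9 in other endothelium, a ratio of 0.0606 (0.00637 to 0.293, edgeR adjusted p = 0.00883). Of the 14 alternatives that tested Angpt1, that call was lost without hashtag 1 (edgeR adjusted p = 0.151) and without hashtag 3 (edgeR adjusted p = 0.240). Hashtag 2 ran the other way, with 2.52 CPM in capillary and 0 CPM in other endothelium.

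Unlike Vegfa and Angpt1, Angpt2 was not higher in fibroblasts than in SMC. SMC had 37.4, 37.9 and 26.4 CPM, capillary endothelium 25.4, 20.2 and 38.0 CPM, fibroblasts 17.6, 26.2 and 14.3 CPM, and other endothelium 9.56, 0 and 20.2 CPM. SMC and capillary endothelium overlapped, with a difference of -0.31 ± 0.28 on the log2 scale (edgeR adjusted p = 0.369). Capillary against other endothelium did not pass either (41 against 4 UMIs, 1.54 ± 0.73, edgeR adjusted p = 0.167). Fibroblasts were lower than SMC by -0.87 ± 0.31 (edgeR adjusted p = 0.0272). That call was lost in 6 of 16 alternatives, among them without hashtag 1 (-0.72, edgeR adjusted p = 0.242). Other endothelium held 4 UMIs against 364 in SMC, a ratio of 0.303 (0.0821 to 0.782, edgeR adjusted p = 0.0345). This call was lost in 9 of 16 alternatives, including without hashtag 1 (edgeR adjusted p = 0.151) and without hashtag 2 (edgeR adjusted p = 0.274).

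The SMC level of Angpt2 was above that of barcodes under 500 genes, 34.2 CPM (32.6 to 35.8, 1696 UMIs) against 3.95 CPM (2.58 to 5.78). The second level is lowered by haemoglobin RNA and was not corrected for it. Angpt2 was found in 21.0% of SMC barcodes, or 3.66% at 1000 UMIs. Mcph1, a gene that overlaps Angpt2, had 5.66 CPM in SMC, and reads of overlapping genes cannot be told apart where the counting did not use strand. In fibroblasts Angpt2 ran opposite to Tek: barcodes with a Pi16 UMI had 16.1 CPM (12.7 to 20.1) and those without had 54.6 CPM (44.8 to 65.9). For Angpt1 the values were 24.4 CPM (20.2 to 29.3) and 36.6 CPM (28.7 to 46.0), with intervals that overlapped.

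A list of 8 further VEGF ligands, angiopoietins and angiopoietin-like (Angptl) proteins was read, of which 5 could be tested. These are Vegfb, Vegfc, Vegfd, Angptl2 and Angptl4, so the counts are not of VEGF and Tek ligands alone. In fibroblasts 4 of the 5 were higher than in SMC, where 22.0% of all genes were, with a median log2 fold change of 2.89 beside 0.05. They include Angptl4, a lipase inhibitor, at 4.69 ± 0.27 (97.3 ± 16.4 against 3.50 ± 1.63 CPM), and the Flt4 ligands Vegfd at 3.70 ± 0.24 (110.4 ± 36.2 against 8.23 ± 1.40 CPM) and Vegfc at 2.89 ± 0.42 (22.5 ± 5.58 against 2.88 ± 0.968 CPM). Their edgeR adjusted p-values were 3.93e-14, 7.17e-13 and 2.26e-06. Capillary endothelium had 2 of 5 higher and 3 lower than SMC, where 26.4% and 26.5% of all genes were called. Among the lower ones, Vegfb, a ligand of Flt1, changed by -1.79 ± 0.26 (19.9 ± 9.28 against 64.2 ± 2.83 CPM, edgeR adjusted p = 1.28e-06).

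Among 14 receptor partners and modulators 12 were tested. Against SMC, 5 were higher and 6 lower in capillary endothelium, where 26.4% and 26.5% of all genes were. In other endothelium 6 were higher and 2 lower (14.2% and 13.2% of all genes), and in fibroblasts 6 and 2 (22.0% and 18.6%). The median log2 fold changes were -0.50, 1.56 and 0.71, beside -0.00, -0.01 and 0.05 for all genes. Ptprb (VE-PTP), the phosphatase that restrains Tek, had 1308 ± 167 CPM in capillary and 1324 ± 168 CPM in other endothelium against 7.76 ± 2.25 CPM in SMC (log2 fold changes 7.31 ± 0.19 and 7.28 ± 0.20, edgeR adjusted p = 1.18e-21 and 3.44e-20). Emcn, a sialomucin known to bind Kdr, stood 7.87 ± 0.32 and 7.50 ± 0.45 above SMC (edgeR adjusted p = 1.20e-17 and 2.80e-13). Ptprj, a phosphatase of Kdr, separated the endothelial groups: it was 4.24 ± 2.00 CPM in capillary and 113.6 ± 35.9 CPM in other endothelium, a log2 fold change of -4.70 ± 0.48 (edgeR adjusted p = 2.50e-08). Plxnd1, the semaphorin receptor that acts beside the neuropilins, was 1.05 ± 0.25 higher in capillary endothelium (edgeR adjusted p = 0.00328). Svep1, a matrix protein reported as a ligand of Tie1, was 6.83 ± 0.24 higher in fibroblasts than in SMC (edgeR adjusted p = 1.63e-17).

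Of 12 genes known to respond to VEGF, 9 were tested. Against SMC, 7 were higher and 1 lower in capillary endothelium (26.4% and 26.5% of all genes). In other endothelium 6 were higher and 1 lower (14.2% and 13.2%). The medians were 4.05 and 2.25 on the log2 scale, beside -0.00 and -0.01 for all genes. Against other endothelium, capillary endothelium had 3 of the 9 higher and 1 lower, with a median of 0.75, where 8.59% and 8.69% of all genes were called. The 3 are the Notch ligand Dll4 (3.05 ± 0.62, edgeR adjusted p = 7.04e-04), the pericyte growth factor Pdgfb (2.66 ± 0.27, edgeR adjusted p = 2.28e-08) and the transcription factor Ets1 (2.31 ± 0.22, edgeR adjusted p = 8.78e-09). In other endothelium they held 4, 22 and 37 UMIs. The calcineurin inhibitor Rcan1 was lower in capillary than in other endothelium (-1.80 ± 0.54, edgeR adjusted p = 0.0189), from 14 UMIs in each group. In fibroblasts 1 was higher and 3 lower than in SMC (22.0% and 18.6% of all genes), with a median of -0.07. The signal transduction list had 12 of 15 genes tested. Against SMC, 6 were higher and 3 lower in capillary endothelium (26.4% and 26.5% of all genes), with a median of 0.58. The largest rise was in the small-GTPase regulator Rasip1 (7.55 ± 0.24, edgeR adjusted p = 8.41e-19).

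Of 8 genes that control Vegfa under low oxygen, 6 were tested. Capillary endothelium had 1 higher and 1 lower than SMC, where 26.4% and 26.5% of all genes were called. Other endothelium had 1 higher and 2 lower than SMC (14.2% and 13.2% of all genes), and fibroblasts 0 and 3 (22.0% and 18.6%). Capillary against other endothelium gave 2 higher and 0 lower (8.59% and 8.69%). Epas1 (HIF-2α) was higher in capillary endothelium than in SMC, by 2.97 ± 0.12, and lower in fibroblasts, by -0.97 ± 0.20 (edgeR adjusted p = 8.81e-18 and 2.54e-04). Hif1a was lower than in SMC in capillary endothelium (-1.20 ± 0.15) and in fibroblasts (-1.14 ± 0.15), with edgeR adjusted p of 1.17e-07 and 3.15e-07. Of 8 soluble and matrix genes that bind or process VEGF, 7 were tested. Fibroblasts had 4 higher and 2 lower than SMC, with a median of 0.67, where 22.0% and 18.6% of all genes were called. Capillary endothelium had 1 higher and 4 lower than SMC (median -1.78), beside 26.4% and 26.5% of all genes. Other endothelium had 1 higher and 2 lower (median -0.76), beside 14.2% and 13.2%. Capillary against other endothelium gave 1 higher and 3 lower (median -0.44), beside 8.59% and 8.69%. Ccbe1, which helps mature VEGF-C, was at 31.7 CPM in fibroblasts (49 UMIs) against 0.364 CPM in SMC (4 UMIs, log2 fold change 6.05 ± 0.57, edgeR adjusted p = 5.98e-09). Thbs1, an inhibitor of angiogenesis, varied widely in other endothelium (239 ± 269 CPM). It was 4.20 ± 0.44 higher in other endothelium than in SMC and 4.00 ± 0.55 lower on the log2 scale in capillary than in other endothelium (edgeR adjusted p = 1.47e-08 and 3.62e-06).

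Genes with the most similar pattern over the 12 sums were listed by Pearson correlation of log2(CPM + 10), as a description over sums that share animals and depth. For Tie1 they were Podxl, Notch1 and Egfl7 (r = 0.995, 0.994 and 0.993). For Tek they were Ramp2, Atox1 and Sp100 (0.988, 0.978 and 0.977), and for Nrp1 they were Klf4, Nck1 and Tmod3 (0.986, 0.985 and 0.984). Kdr was closest to Wasf2 (0.984), Flt1 to Prex2 (0.987), Flt4 to Klhl4 (0.977) and Nrp2 to Ppp1r2 (0.984). The ligands had looser neighbours, with Scd2 for Vegfa (0.931), Dram1 for Angpt1 (0.924) and Mrps6 for Angpt2 (0.913).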

How the data were processed

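The deposited matrix pools 4 gene expression and 4 hashtag libraries under 1 barcode suffix, so barcodes cannot be traced to a library. Its deposited values are raw UMI counts per gene. The file headers give Cell Ranger 6.0.1 as the program that wrote them. Per the submitters' processing notes, mm10 was the build, and Seurat 4.0.5 is listed as a tool. For the gene annotation, no source used here gives a name. The matrix holds 166848700 gene UMIs.

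Groups follow the stated thresholds. Hashtags were called with HTODemux (Seurat 5.3.0, centred log ratios per hashtag, positive quantile 0.99), which left 1025, 721 and 944 barcodes with hashtags 1, 2 and 3. No doublet caller was run. Barcodes in 2 groups were dropped from the 4 groups, except in the alternative that kept double SMC and endothelial barcodes as endothelial. The macrophage-like barcodes of the closing section were taken without this exclusion. Barcodes with several hashtags or none were left out of the sums only, and pooled levels, shares and splits keep them. Sums of at least 10 barcodes were fitted with edgeR 4.0.16 (quasi-likelihood, TMM, filterByExpr, Benjamini-Hochberg over 7628 genes), with the hashtag as a block, since the groups of a hashtag come from the same animal. Deviations of sums with the same hashtag correlated little (median 0.0141 over 18 pairs, against -0.0105 over 36 pairs of other hashtags). The fit was tested on simulated data. With 3 animals, p-values measure the spread between these samples. Alternatives were DESeq2 1.42.0 and those named in the closing section.

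The 10 genes are followed in each comparison, Vegfa only where alternatives tested it. Of the pathway lists the largest called changes are named, up to 3 per direction, and the 3 genes most like each gene were found by correlation. Calls on the pathway lists were not followed through the alternatives. The genes, lists and tests were chosen with earlier results of these data known.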

Additional observations from a re-analysis of the deposited data

Results flagged for a closer look

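The 10 genes were also read in barcodes outside the 4 groups, and a level is listed where it lay above that of barcodes under 500 genes. Haemoglobin RNA lowers the CPM of other genes in those barcodes, so this limit is a low one. Macrophage-like barcodes, with at least 3 UMIs of C1qa, C1qb and C1qc, numbered 114. They had 189 CPM of Nrp1 and 96.5 CPM of Nrp2, and 62.5 CPM of Kdr, 59.0 CPM of Flt1, 16.1 CPM of Tek and 14.3 CPM of Angpt2. In the 74 of them that were in none of the 4 groups Nrp1 was 244 CPM (187 to 313, exact 95% Poisson interval) and Nrp2 122 CPM (82.8 to 173), while Kdr was 19.7 CPM (5 UMIs) and Tek 3.93 CPM (1 UMI).

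The 685 barcodes in none of the groups had 101 CPM of Nrp1, 50.3 CPM of Flt1, 38.8 CPM of Angpt2, 30.5 CPM of Nrp2, 26.7 CPM of Kdr, 13.7 CPM of Angpt1, 8.39 CPM of Tek, 5.28 CPM of Vegfa and 4.04 CPM of Flt4. No test was made on these barcodes, which hold several cell types.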

How the results depend on the processing

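All 16 alternatives kept the 7 higher and 0 lower genes of capillary endothelium against SMC. A lower call was hardly open there to Kdr, Flt4, Tek and Tie1, which were low in SMC. The fit with no replicate block changed no call, and under it Flt4 between the endothelial groups was -0.0677 in place of 0.01, neither called. The pairing of sums by animal rests on the shared hashtag.

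Leaving out 1 hashtag (without replicate 1, 2 or 3) gave 3 to 4 higher and 0 to 2 lower genes for capillary against other endothelium, 7 higher and 0 to 1 lower for other endothelium against SMC, and 4 to 5 higher and 1 to 2 lower for fibroblasts against SMC. Without hashtag 3, Flt4 was -0.0481 between the endothelial groups (up to 0.110 with another hashtag left out) and Nrp2 was 0.0589 between fibroblasts and SMC (down to -0.378). A mitochondrial limit of 10% left 2 higher and 0 lower genes between the endothelial groups, 5 higher and 0 lower for other endothelium against SMC, and 3 higher for fibroblasts against SMC. It kept 1 of 3 other endothelial sums, and over all genes the calls between the endothelial groups went from 655 higher and 663 lower to 207 and 251, and those of other endothelium against SMC from 1080 and 1005 to 514 and 538.

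For capillary against other endothelium the lower genes numbered 2 with the ratio caller, with log ratios centred per barcode, under stricter group thresholds and without lymphatic barcodes (Tek joined Angpt1), and 0 without leukocyte and platelet barcodes, where Flt4 was -0.34. Centring per barcode dropped 1 other endothelial sum and gave -0.0344 for Nrp1 and -0.0708 for Tie1 between the endothelial groups, and 0.78 for Nrp2 in fibroblasts against SMC. It also took the lower calls of all genes in fibroblasts from 1416 to 937. For other endothelium against SMC the lower gene, Angpt2, was not called (0) with DESeq2, centring per barcode, at least 1000 genes, double SMC and endothelial barcodes kept as endothelial, without lymphatic barcodes, and without leukocytes and platelets. Without a filter on low counts 1752 in place of 1005 of all genes were lower there. Without lymphatic barcodes Nrp2 was -0.89. Fibroblasts against SMC had 1 lower gene with DESeq2, with the ratio caller and without mesothelial barcodes, and 0 with centring per barcode and with stricter thresholds. Without mesothelial barcodes, an alternative chosen after seeing the data, 3 genes were higher. The cause of these changes was not tested beyond the values given.

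Over all alternatives, 514 of the recomputed results kept direction and side of the threshold. With the sign kept, 41 lost a call and 5 gained one, and 8 changed sign. Results that changed sign are counted only there, also where a call was lost, such as Nrp1 between the endothelial groups with centring per barcode (-0.0344). Of the gene levels by group, 31 stayed within the SD of the hashtag samples when pooled over all barcodes, and 9 did not. Depth limits the other endothelial group most, with 20 to 33 barcodes per sum.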

Other observations

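Barcodes with at least 2 UMIs of the pericyte markers Kcnj8 and Abcc9 and no fibroblast or endothelial rule were mostly in the SMC group (2654 of 2825). The 171 that were not had 57.0 CPM of Angpt2 (43.8 to 72.9, exact 95% Poisson interval), 100.4 CPM of Nrp1 (82.6 to 120.9) and 20.8 CPM of Angpt1 (13.2 to 31.2). The SMC group had 34.2, 24.3 and 3.53 CPM of these genes. Kdr was seen 1 time and Tie1 0 times in these 171 barcodes. The split was a description with no test.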
